A study of Mus musculus with 9 samples.

Results

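The KO2 line of 4T1-TGL cells, in which the gene of the long noncoding RNA Malat1 was disrupted, was compared with control cells of the same line. The comparison was defined by sample titles, not by measured values, and it held 6 of the 9 libraries of the series: 3 KO2 libraries and 3 control libraries, called Ctrl. The other 3 libraries came from a further knockout line, KO1. 4T1 is a mouse mammary carcinoma line that metastasises spontaneously in its host strain, and the labels give the strain as BALBC. Ctrl cells are labelled WT and KO2 and KO1 cells Malat1 KO, and all of them grew in DMEM/F12 with no further treatment named. The labels do not say how Malat1 was disrupted, whether KO2 grew from a single cell, or whether each replicate had its own culture. The p-values below therefore measure the spread between libraries, which may be technical. The series title places the experiment in work on pyroptosis and on killing by T cells.

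Malat1 is an abundant nuclear RNA that collects in nuclear speckles, the stores of splicing factors. Its neighbour Neat1 forms the core of paraspeckles. Pyroptosis is an inflammatory cell death run by caspases and gasdermins, and its sensors are partly induced by NF-kB, the transcription factor family that also drives cytokine genes. Interferon-stimulated genes are switched on through interferon receptors and hold antiviral effectors and part of the machinery that shows antigens to T cells.

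The deposited tables give an estimated read count for every gene, with library totals between 30655924 and 35406395. Levels are given in CPM, counts brought to a common library size with edgeR's TMM factors, and libraries are listed in the order of replicates 1, 2 and 3. On the first principal component, which carried 66.3% of the variance, the KO2 libraries lay between 88.5 and 92.6 and the other 6 between -48.2 and -41.0. The control libraries listed 16104 to 16254 genes and the KO2 libraries 15100 to 15678. The label breast cancer cell line was set against epithelial markers. The keratin genes Krt8 and Krt18 stood above 312 CPM in every Ctrl library, while the epithelial adhesion genes Cdh1 and Epcam stayed at or below 0.638 CPM in every Ctrl and KO2 library.

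KO2 replicate 2 carried traces of transcripts that were lower or absent in the other libraries. In it 16 genes reached at least 1 CPM and at least 10 times the level of every other library. The highest was Sftpc, a surfactant protein gene of lung alveoli, at 9.29 CPM in KO2 replicate 2 and at most 0.276 CPM elsewhere. The haemoglobin genes Hba-a1 and Hbb-bs stood at 7.56 and 7.39 CPM there, and Eln, which encodes elastin, at 4.75 CPM. Hba-a2, Mfap4 and the club cell gene Scgb1a1 followed at 4.10, 3.22 and 2.78 CPM, and 1 of the 8 highest was an unnamed gene model. Of 14 listed lung markers, 1 was at 0 in KO2 replicate 2 and 7 in each of the other KO2 libraries. The summed level of the 6 listed red blood cell markers was 21.02 CPM in KO2 replicate 2, 0.721 and 0.51 CPM in the other KO2 libraries and 0.225 to 0.3 CPM in Ctrl. The summed lung markers were at 66.3 CPM against 50.4 and 51.3 CPM in the other KO2 libraries, most of it Aqp5, a water channel gene that averaged 48.4 CPM in KO2. Counts of calls without KO2 replicate 2 are given beside most gene groups.

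**Figure D1:**
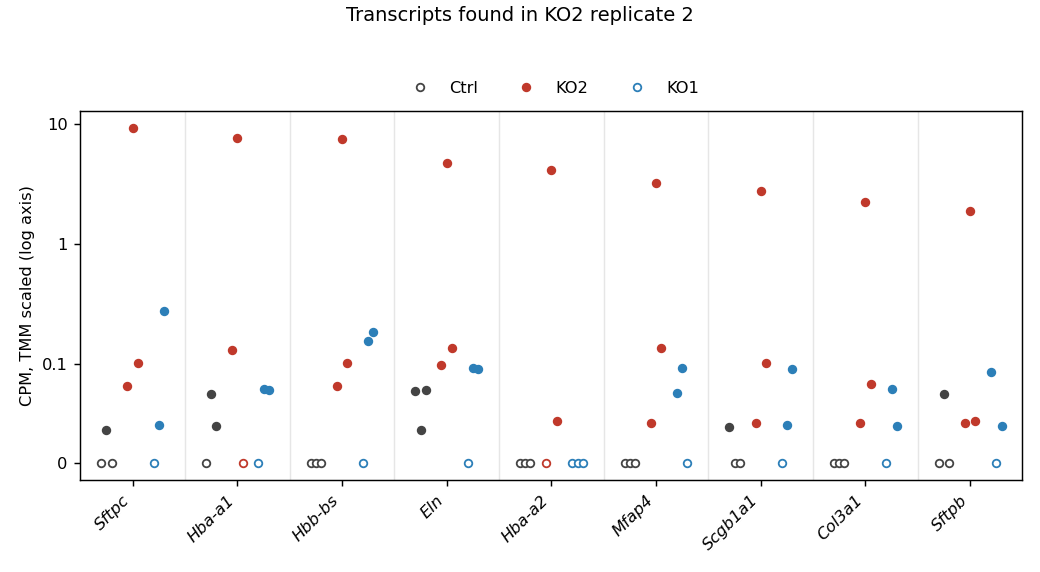
Levels of 9 of the 16 genes found in KO2 replicate 2, as TMM-scaled CPM on a log axis; each point is 1 library, coloured by group, and open points at 0 are libraries with 0 counts. The single high KO2 point in each column is replicate 2, from 1.87 CPM for Sftpb to 9.29 CPM for Sftpc, and all other libraries lie at or below 0.276 CPM.

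The targeted gene was lower in KO2 but not absent. Malat1, at chr19:5795690-5802672 in GRCm38, stood at 510.3, 402 and 474 CPM in Ctrl and at 119, 160.1 and 98.1 CPM in KO2. The groups did not overlap, and the highest KO2 library was replicate 2. The fit across all genes gave a log2 fold change of -1.88 ± 0.178 (SE; edgeR adjusted p = 1.37e-05), and -2.09 without KO2 replicate 2. The KO2 libraries kept 25.8%, 34.6% and 21.2% of the Ctrl mean, whereas KO1 kept 0.57% to 0.839%. Where along the RNA these reads fell cannot be read from counts per gene.

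Neat1 was higher in every KO2 library, at 1906, 2197 and 1597 CPM against 952, 776 and 975.2 CPM in Ctrl, a log2 fold change of 1.08 ± 0.121 (SE; edgeR adjusted p = 2.58e-05). Tested directly against KO1, where it averaged 1017 CPM, it was 0.90 higher on the log2 scale in KO2 (edgeR adjusted p = 9.23e-05). Of 36 tested genes in the region around Malat1 on chromosome 19, 20 rose and 2 fell in KO2. Their median log2 fold change was 0.34 against -0.03 over all 13682 tested genes. Over all tested genes 24.6% were called higher and 29.5% lower. Ltbp3, whose product binds latent TGF-beta, rose 2.81-fold from 172 ± 11.6 to 483 ± 16.2 CPM (SD, n = 3). Sipa1, a GTPase-activating protein gene, rose 2.12-fold and Slc25a45, a mitochondrial carrier gene, 2.55-fold.

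Across the genome 7400 of 13682 tested genes, 54.1%, passed an adjusted p of 0.05 in edgeR's quasi-likelihood test with Benjamini-Hochberg adjustment. Of these, 3367 were higher and 4033 lower in KO2, so that 45.5% of the calls were higher. With total count scaling this share was 35.8%, with log2(FPKM + 1) it was 35.7% and with log2(FPKM + 0.1) 35.5%, since these scalings moved the median of all genes to between -0.107 and -0.08. Changes of at least 2-fold were called for 541 higher genes (3.95%) and 1561 lower genes (11.4%), and without KO2 replicate 2 for 505 and 1627. On log2(FPKM + 1), which compresses low values, these counts were 228 and 716. The gene groups below are described by their counts and medians beside those of all tested genes, with no test of a group as a whole. In bulk RNA, fewer cells of a type and less RNA per cell cannot be told apart.

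**Figure D2:**
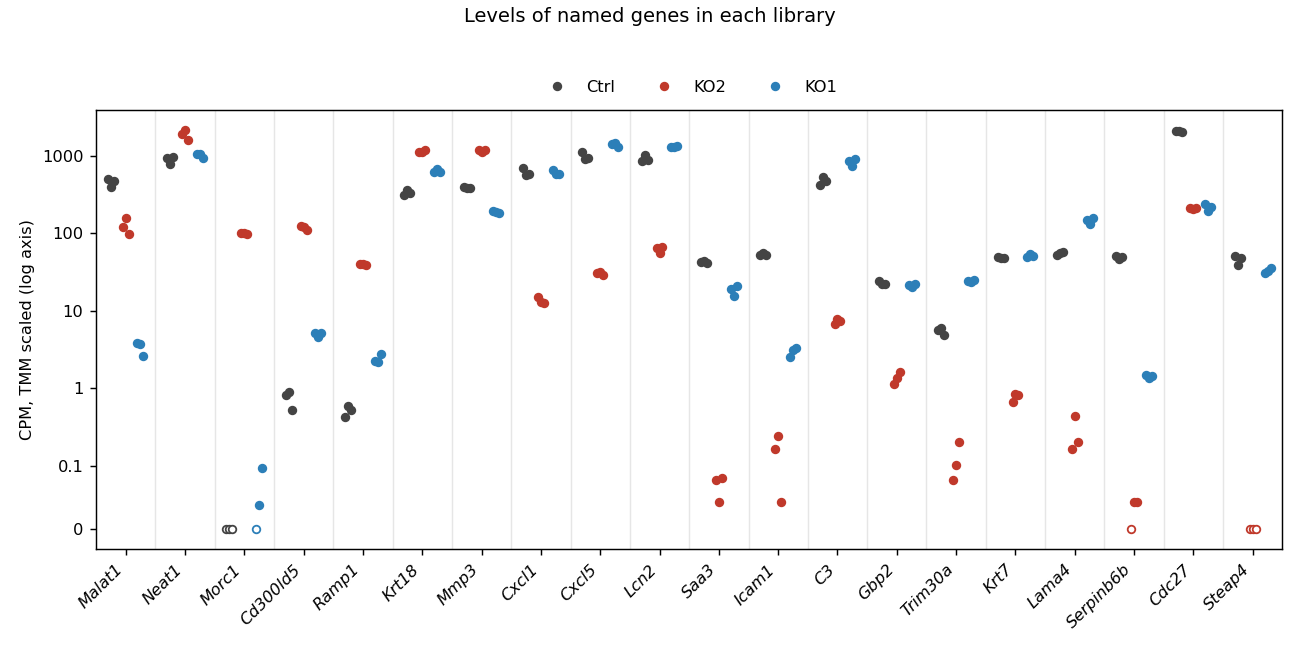
TMM-scaled CPM of 20 genes in the 9 libraries on a log axis, 1 point per library and colour per group; open points at 0 are libraries with 0 counts. Morc1, Cd300ld5 and Ramp1 are highest in KO2, Cxcl1 to Serpinb6b are lowest in KO2, and Cdc27 is low in KO2 and KO1 alike, at 210 and 218 CPM on average.

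**Figure D3:**
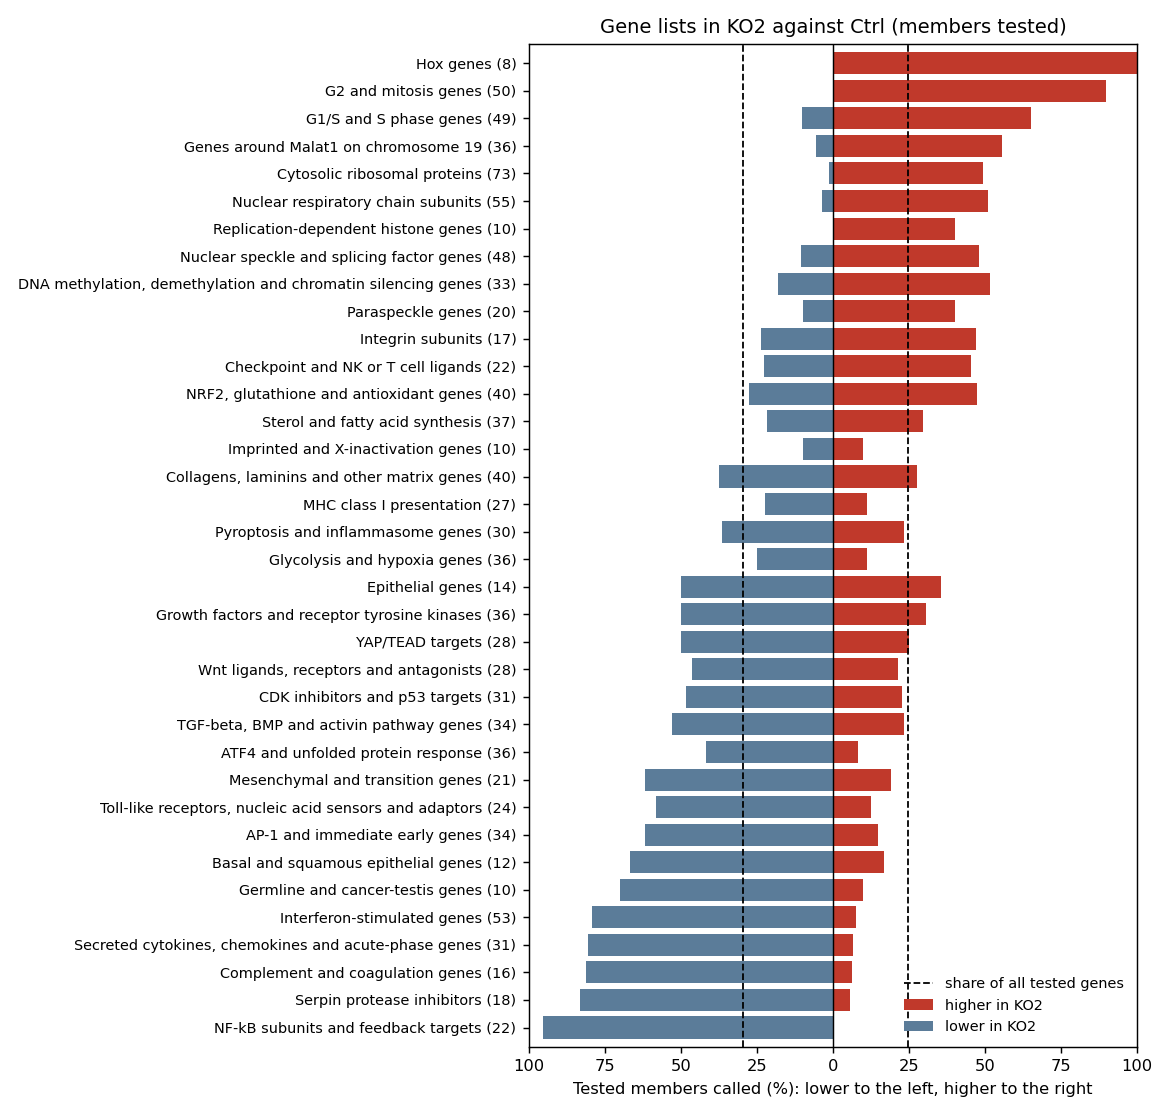
Share of the tested members of 36 gene lists that were called higher (right, red) or lower (left, blue-grey) in KO2 against Ctrl, in percent, with the number tested in parentheses. Dashed lines give the shares of all tested genes, 24.6% higher and 29.5% lower; NF-kB genes, serpins, complement, cytokine and interferon genes lie farthest to the lower side and Hox and mitosis genes farthest to the higher side.

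Secreted inflammatory genes were among the most reduced. Of 31 tested cytokine, chemokine and acute-phase genes, 25 were lower and 2 higher in KO2, against 29.5% and 24.6% of all genes, and all 25 were lower by at least 2-fold. Their median log2 fold change was -5.04, or -4.32 with genes at 0 counts in KO2 set to the smallest change their counts allow. Without KO2 replicate 2, 26 were lower and 2 higher. Cxcl1, a chemokine that attracts neutrophils, stood at 698, 563 and 577 CPM in Ctrl and at 15.1, 13.1 and 12.6 CPM in KO2. Cxcl5, another neutrophil chemokine, stood at 1142, 925 and 943 CPM in Ctrl and at 31.0, 31.8 and 28.6 CPM in KO2. No KO2 library came near the Ctrl range for either gene, and the log2 fold changes were -5.50 ± 0.118 and -5.04 ± 0.107 (SE; edgeR adjusted p = 4.91e-11 and 4.49e-11).

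Lcn2, which encodes an iron-siderophore binding protein, fell 14.8-fold from 924 ± 81.7 to 62.4 ± 5.82 CPM (SD, n = 3). Ccl20, a chemokine for cells with the receptor Ccr6, fell 172-fold to 0.122 ± 0.0667 CPM, and Ccl7, a monocyte chemokine, fell 86.5-fold to 0.19 ± 0.0408 CPM (SD, n = 3). Hp, the haptoglobin gene, stood at 18.0, 18.9 and 18.96 CPM in Ctrl and had counts only in replicate 2 of KO2, at 0.203 CPM. Ccl5, a T cell chemokine, fell 5.56-fold from 9.27 ± 2.09 to 1.67 ± 0.0589 CPM (SD, n = 3). The members that rose were Cx3cl1, a membrane-bound chemokine (log2 fold change 2.35), and Tslp, an epithelial cytokine (0.84). Il1b, Il18, Il34 and Csf1 were not called. KO2 was lower than KO1 for 28 of the 31 genes and higher for 1, where 29.5% and 25.5% of all genes were called. In KO1 against the same Ctrl libraries 10 were higher and 15 lower (15.6% and 14.9% of all genes), with a median of -0.30.

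The NF-kB group moved in the same direction. Of 22 tested genes of NF-kB subunits, inhibitors and feedback targets, 21 were lower and none was higher in KO2 (edgeR). All tested genes gave 29.5% lower and 24.6% higher. The median log2 fold change of the 22 was -1.54. Without KO2 replicate 2 the counts were 21 and 0, and in every alternative that was run 20 or 21 and 0. The member that was not called was Tnfaip2, at -0.05. Nfkbia, the gene of the inhibitor that holds NF-kB in the cytoplasm and is itself an NF-kB target, stood at 221, 189.5 and 214 CPM in Ctrl and at 33.3, 34.0 and 35.2 CPM in KO2. Icam1, an adhesion molecule gene for leukocyte integrins, fell from 52.98, 56.5 and 51.8 CPM to 0.164, 0.237 and 0.034 CPM. Zc3h12a, which encodes an RNase that degrades cytokine mRNAs, fell 9.30-fold (log2 fold change -3.22 ± 0.0871, SE), and Bcl3, a nuclear cofactor of NF-kB, fell 7.14-fold (-2.84 ± 0.13, SE). The groups did not overlap for any of these 4 genes. Among the subunit genes the log2 fold changes ran from -0.46 for Rela and -0.54 for Nfkb1 to -2.36 for Relb. Tested directly, 19 of the 22 were lower in KO2 than in KO1 and 2 were higher. In that test 29.5% of all tested genes were lower and 25.5% higher. In KO1 against Ctrl 3 were higher and 8 lower, where 15.6% and 14.9% of all genes were called.

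Interferon-stimulated genes were lower in KO2. Of 53 tested, 42 fell and 4 rose (79.2% and 7.55%), against 29.5% and 24.6% of all tested genes. The median log2 fold change of the 53 was -1.57. By at least 2-fold 34 fell, as did 11.4% of all tested genes. Without KO2 replicate 2 the counts were 40 and 3. Gbp2, a guanylate-binding protein gene, stood at 23.9, 22.3 and 21.9 CPM in Ctrl and at 1.11, 1.36 and 1.63 CPM in KO2 (log2 fold change -4.05 ± 0.132, SE; edgeR adjusted p = 9.72e-10). Oas1a and Oas1g, genes of synthetases that activate RNase L upon double-stranded RNA, fell 17.6-fold and 39.7-fold, to 0.314 ± 0.122 and 0.203 ± 0.104 CPM (SD, n = 3). Gbp and Oas1 genes have close copies, and since reads may have been shared out among copies, each single value is uncertain.

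Trim30a, an interferon-induced TRIM gene, stood at 5.71, 5.91 and 4.83 CPM in Ctrl and at 0.0655, 0.102 and 0.204 CPM in KO2, while KO1 averaged 24.1 ± 0.694 CPM (SD, n = 3). The KO2 libraries were thus below both other groups, with a log2 difference of -7.57 from KO1 (edgeR adjusted p = 4.38e-10). The 4 members that rose were Epsti1 (log2 fold change 2.69), Socs1 (0.53), Dtx3l (0.34) and Parp9 (0.25). For 3 transcription factor genes of the pathway the log2 fold changes were -1.07 for Irf9, -0.60 for Stat2 and -0.45 for Irf1. Of the 53 genes, 46 were lower in KO2 than in KO1 and 1 was higher, against 29.5% and 25.5% of all tested genes. In KO1 against Ctrl 25 were higher and none lower (edgeR), with a median of 0.48. There 15.6% of all tested genes were higher and 14.9% lower.

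Promoter sequences are shown for 3 interferon-stimulated and 2 NF-kB-related genes that fell, to show where the sequence elements of these pathways lie. RefSeq (GRCm38.p6) gave a promoter for 10175 of the tested genes (74.4%), and the 250 bases before the start were searched on both strands. Each line holds the last 120 bases before the annotated start, 5′ to 3′ on the gene's strand. Capitals mark matches to the interferon-stimulated response element, searched as GAAA, any 2 bases and GAAA, or to the NF-kB motif.
Ifit1 (chr19:34640769-34640888, plus strand): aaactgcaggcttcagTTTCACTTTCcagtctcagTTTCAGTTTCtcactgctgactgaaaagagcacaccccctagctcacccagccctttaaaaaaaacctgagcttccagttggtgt
Oas1a (chr5:120907526-120907645, minus strand): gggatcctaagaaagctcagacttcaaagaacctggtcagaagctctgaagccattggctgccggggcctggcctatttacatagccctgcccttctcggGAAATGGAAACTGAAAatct
Trim30a (chr7:104465194-104465313, minus strand): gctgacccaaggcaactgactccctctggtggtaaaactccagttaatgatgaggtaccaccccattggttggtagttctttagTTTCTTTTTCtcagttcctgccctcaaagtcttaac
Cxcl1 (chr5:90891125-90891244, plus strand): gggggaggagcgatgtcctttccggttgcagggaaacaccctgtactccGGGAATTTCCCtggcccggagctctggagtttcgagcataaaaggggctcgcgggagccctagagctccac
Nfkbia (chr12:55492648-55492767, minus strand): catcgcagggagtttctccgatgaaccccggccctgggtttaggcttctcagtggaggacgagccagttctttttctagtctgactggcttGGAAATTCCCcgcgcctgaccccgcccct
Ifit1 held a pair of response elements, at 104 to 95 and 85 to 76 bases before the start. Those of Oas1a overlapped, at 20 to 11 and 14 to 5 bases, as did the matches of Cxcl1 to the NF-kB motif at 71 to 62 and 70 to 61 bases. Trim30a held its element at 36 to 27 bases, and Nfkbia an NF-kB match at 29 to 20 bases. The response element was found in 15 of the 31 lower interferon-stimulated genes with a promoter (48.4%), in 18 of all 38 tested members with one (47.4%), in 3.17% of all tested genes and in 3.46% of all genes with a promoter in the table. The NF-kB motif was found in 6 of 15 lower cytokine genes (40%) and in 7 of 16 lower NF-kB genes (43.8%). Among all tested members with a promoter it was found in 7 of 19 cytokine genes (36.8%) and 7 of 17 NF-kB genes (41.2%). It was found in 5.53% of all tested genes and in 4.46% of all genes in the table. A match describes these letters only and is no evidence of binding.

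**Figure D4:**
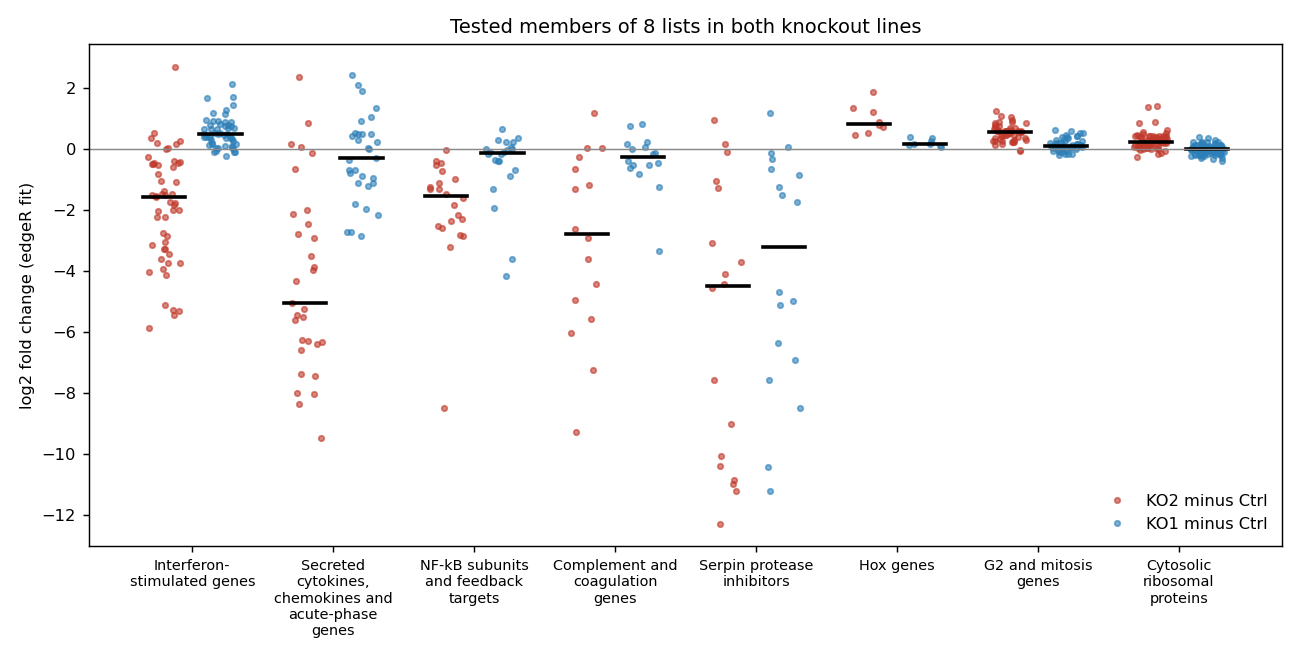
Fitted log2 fold changes of the tested members of 8 gene lists, 1 point per gene, in KO2 minus Ctrl (red) and KO1 minus Ctrl (blue); black bars are medians, and both comparisons share the 3 Ctrl libraries. The interferon genes centre on -1.57 in KO2 and 0.48 in KO1, the cytokine genes on -5.04 and -0.30, and the mitosis genes on 0.56 and 0.10.

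Most tested complement and serpin genes were called lower, where 29.5% of all tested genes were called lower and 24.6% higher. Of 16 tested complement and coagulation genes 13 fell (12 without KO2 replicate 2), and the member that rose was Plau, which encodes urokinase (log2 fold change 1.16). C3, the central complement component, stood at 428, 537 and 478 CPM in Ctrl and at 6.65, 7.83 and 7.31 CPM in KO2, a 66.2-fold difference (edgeR adjusted p = 4.49e-11). In KO1 it was higher than in Ctrl, at 842 ± 81.7 CPM (SD, n = 3). Cfb, a protease of the alternative pathway, fell 154-fold, C1s2, a copy of the C1s protease gene, 49.0-fold, and F5, coagulation factor V, 31.1-fold.

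Of 18 tested serpin genes, which encode protease inhibitors, 15 fell, or 83.3% against 29.5% of all tested genes. Without KO2 replicate 2 the count was 17. Serpine2 rose (0.96). Serpina1b had 0 counts in KO2 against 1974 in Ctrl and was at least 402-fold lower. Serpina3f was at least 162-fold lower, and Serpina3g kept 0.0366% of its Ctrl level (95% counting interval 0.000927% to 0.204%). Many Serpina genes are copies of each other, which makes single values uncertain. In KO1 14 of the 18 serpin genes fell too, as did 14.9% of all tested genes. In the direct test 8 of the 18 were lower in KO2 than in KO1 and 1 was higher. All tested genes gave 29.5% lower and 25.5% higher in that test.

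Genes of cell death and immune recognition, the subject of the series title, moved in both directions. Of 30 tested pyroptosis and inflammasome genes 11 fell and 7 rose, against 29.5% and 24.6% of all genes, with a median of -0.03 and the same counts without KO2 replicate 2. Nod2, a sensor of bacterial peptidoglycan, stood at 8.55 ± 0.222 CPM in Ctrl (SD, n = 3) and held 3 counts in KO2, 0.392% of its Ctrl level (95% counting interval 0.0807% to 1.15%). Casp4, the caspase that senses cytosolic lipopolysaccharide, stood at 14.0, 16.2 and 14.1 CPM in Ctrl and at 2.98, 3.22 and 2.62 CPM in KO2. Panx1, a channel gene, fell 5.15-fold, and Naip2, an inflammasome receptor gene with close copies, 14.4-fold.

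Fas, the death receptor gene, stood at 49.2, 33.3 and 46.8 CPM in Ctrl and at 0.426, 0.407 and 0.51 CPM in KO2, with no overlap and a log2 fold change of -6.58 ± 0.226 (SE; edgeR adjusted p = 1.73e-09). In KO1 it averaged 42.2 CPM, and the direct difference between the lines was -6.55 (edgeR adjusted p = 2.01e-09). Of 27 tested genes of MHC class I presentation 6 fell and 3 rose (22.2% and 11.1%), and 18 were not called. Both shares were below the 29.5% and 24.6% of all tested genes. The counts were 10 and 2 with total count scaling and 6 and 2 without KO2 replicate 2. Among the MHC class I genes that fell, Tap2, a peptide transporter gene, kept 56.5% of the Ctrl mean. Psmb8, an immunoproteasome subunit gene, kept 59.6%. Of 22 tested checkpoint and NK or T cell ligand genes 10 rose and 5 fell (45.5% and 22.7%). Raet1a and Raet1c, genes of ligands of the NK receptor NKG2D with close copies, rose 2.72-fold and 2.61-fold, and Nectin2, a ligand gene for NK and T cell receptors, fell 2.27-fold. Of 24 tested Toll-like receptor and nucleic acid sensor genes 14 fell and 3 rose (58.3% and 12.5%). Tlr2 fell 2.97-fold from 23.2 ± 3.98 to 7.81 ± 0.488 CPM (SD, n = 3), and Mavs, the adaptor of cytosolic RNA sensors, rose 1.61-fold.

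Several genes passed from present to absent. In 139 genes every Ctrl library held at least 1 CPM and KO2 held at most 3 counts in all, and 117 of them had an Entrez number. Of the 139, 72 stood at 1 CPM or more in every KO1 library and 22 held at most 3 counts in KO1. Steap4, a metalloreductase gene, stood at 51.1, 39.2 and 47.5 CPM in Ctrl, had 0 counts in all KO2 libraries and was at least 696-fold lower. Nipal2, a magnesium transporter gene, was at least 279-fold lower, Tmem51 at least 329-fold and the retinol receptor gene Stra6 at least 326-fold. Shtn1, which encodes an actin-linked neuronal protein, held 2 counts in KO2 and kept 0.0903% of its Ctrl level (95% counting interval 0.0109% to 0.327%). Serpinb6b, an intracellular serpin gene, also held 2 counts, 0.0459% of Ctrl (95% counting interval 0.00556% to 0.166%). The intervals cover counting error only.

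In some of these genes KO1 went the other way. Map2, which encodes a dendritic microtubule protein, stood at 10.9, 9.11 and 10.5 CPM in Ctrl, had 0 counts in KO2 (at least 108-fold lower) and averaged 101 ± 2.58 CPM in KO1 (SD, n = 3). Sfrp1, a secreted Wnt antagonist gene, stood at 14.3, 10.7 and 12.9 CPM in Ctrl, had 0 counts in KO2 (at least 160.2-fold lower) and averaged 40.7 CPM in KO1. Gm1966 had 0 counts in KO2 (at least 148-fold lower) and stood at 17.2 CPM in Ctrl and 72.1 CPM in KO1. Each of the 3 genes was absent from every KO2 library and present in all 6 others. The X-linked genes 3830403N18Rik and Gm773, also at 0 counts in KO2, were at least 686-fold and 199-fold lower.

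Far fewer genes appeared. By the same limits 8 genes were gained in KO2, of which 2 had an Entrez number, Morc1 and Tox2, and 6 were unnamed gene models. Morc1, a germline ATPase gene of transposon silencing, had 0 counts in Ctrl and stood at 100.6, 100.3 and 98.3 CPM in KO2, at least 1686-fold higher. KO1 averaged 0.041 ± 0.0467 CPM of Morc1 (SD, n = 3). Of 10 tested germline and cancer-testis genes Morc1 was the only member called higher, and 7 were lower (10% and 70%). All tested genes gave 24.6% higher and 29.5% lower. Among the lower members Tdrd7, a component of germ granules, kept 41.7% of its Ctrl level.

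The CD300 genes on chromosome 11 encode receptors of myeloid cells that bind lipids. Cd300ld5 stood at 0.811, 0.9 and 0.516 CPM in Ctrl and at 124, 119.9 and 112 CPM in KO2, a log2 fold change of 7.31 ± 0.141 (SE; edgeR adjusted p = 3.5e-11). Cd300lb rose from 1.17 ± 0.236 to 67.7 ± 3.39 CPM and Cd300ld4 from 0.131 ± 0.203 to 34.3 ± 3.27 CPM (SD, n = 3). Cd300c2 rose to 16.3 ± 1.97 CPM (SD, n = 3). For these 4 genes all KO2 libraries lay above all Ctrl libraries. Cd300ld3 was called higher too, but stood at 6.32, 0 and 7.04 CPM in KO2, so that replicate 2 overlapped Ctrl. Cd300a was not called (log2 fold change -0.45). Cd300lg, which lies apart from these genes on chromosome 11, went the other way: it held 3 counts in KO2 against 1159 in Ctrl, 0.294% of its Ctrl level (95% counting interval 0.0606% to 0.863%), and averaged 0.0307 CPM in KO1 against 11.4 CPM in Ctrl. For the first 4 genes the direct log2 differences from KO1 ran from 4.39 for Cd300lb to 5.13 for Cd300c2. For Cd300ld3 the difference was 5.28, and Cd300ld5 averaged 4.97 CPM in KO1. Of the 5 genes that rose in KO2, all but Cd300ld3 were also called higher in KO1 than in Ctrl. Their log2 fold changes in KO1 ran from 1.47 for Cd300lb to 3.03 for Cd300ld4. Several of these genes are close copies, so single values are uncertain. Of 5 tested macrophage and neutrophil markers outside this family 1 was called higher and 2 lower, and without KO2 replicate 2 none and 1 (edgeR). All tested genes gave 24.6% higher and 29.5% lower. The summed level of all 22 listed markers, tested or not, was 43.0 to 47.2 CPM in KO2 and 46.1 to 50.2 CPM in Ctrl. In KO2 replicates 1 and 3, 12 and 16 of the 22 listed markers were at 0, and in Ctrl 10 to 12.

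The other large increases were in genes of varied roles. Ramp1, which encodes a receptor activity-modifying protein for calcitonin-family peptides, rose from 0.421, 0.591 and 0.516 CPM to 40.1, 39.8 and 39.3 CPM, 78.0-fold. Add2, a membrane skeleton adducin gene, rose 51.1-fold to 100.1 ± 5.45 CPM (SD, n = 3). Krt23, a keratin gene, rose 99.5-fold from a Ctrl mean of 0.0898 CPM. The kinase gene Sgk2 rose 46.7-fold, Bpifb4 48.6-fold and Cplx2, a complexin gene of vesicle release, 26.7-fold. Zfp523, a zinc finger gene, rose 69.2-fold to 31.8 CPM and stood at 21.3 CPM in KO1, a difference between the lines of 0.58 on the log2 scale (edgeR adjusted p = 0.000362).

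Genes of cell shape and adhesion split. The simple epithelial keratin gene Krt7 fell from 49.7, 48.2 and 47.8 CPM to 0.655, 0.848 and 0.816 CPM, 62.9-fold. Krt18 rose from 312, 360.3 and 328 CPM to 1139, 1114 and 1206 CPM, and its partner Krt8 rose 2.83-fold. KO1 kept Krt7 at 51.3 CPM. Of 14 tested epithelial genes 7 fell and 5 rose (8 and 5 without KO2 replicate 2). These were 50% and 35.7%, against 29.5% and 24.6% of all tested genes. Of 12 basal and squamous genes 8 fell and 2 rose (66.7% and 16.7%). Krt80 fell 2.03-fold, while Ppl, the periplakin gene, rose 1.73-fold. Of 21 tested mesenchymal genes 13 fell and 4 rose, or 61.9% and 19% (14 and 4 genes without KO2 replicate 2). The intermediate filament gene Vim rose 1.43-fold.

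Among secreted proteases, Mmp3 stood at 402, 381 and 382 CPM in Ctrl and at 1207, 1122 and 1199 CPM in KO2, while KO1 averaged 186.5 CPM. The KO2 libraries were above both other groups (direct log2 difference from KO1 2.66, edgeR adjusted p = 1.79e-10). Mmp9, a gelatinase gene, fell 4.84-fold and was low in KO1 as well, at 67.3 CPM against 51.0 CPM in KO2. S100a4, a calcium-binding protein gene linked to metastasis, rose from 537, 288 and 434 CPM to 1273, 1423 and 1333 CPM.

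Of 40 tested matrix genes 15 were lower and 11 higher, also without KO2 replicate 2. These shares, 37.5% and 27.5%, lay near the 29.5% and 24.6% of all tested genes. Lama4, a laminin chain gene, stood at 51.9, 55.1 and 57.2 CPM in Ctrl, at 0.164, 0.441 and 0.204 CPM in KO2 and at 145 ± 12.7 CPM in KO1 (SD, n = 3). Dcn, the decorin gene, fell 85.5-fold, Lamb3, another laminin chain gene, 70.7-fold and Col6a2, a collagen VI chain gene, 44.5-fold. Col6a2 was highest in KO2 replicate 2, at 0.882 CPM against 0.131 and 0.238 CPM in the others. Acta2, the smooth muscle actin gene, was likewise at 0.882 CPM in KO2 replicate 2 and at 0.0328 and 0.068 CPM in the others, against 5.17 to 6.31 CPM in Ctrl. Collagen and other fibroblast transcripts such as Col3a1 were among those found in KO2 replicate 2, and their part in these levels was not tested. Of 8 tested fibroblast markers 5 were lower and 2 higher, also without KO2 replicate 2. The summed level of all 15 listed fibroblast markers, tested or not, was 233 to 255 CPM in KO2 and 429 to 455 CPM in Ctrl. Most of it was Pdgfra, at 137.6 to 144.3 CPM in KO2 and 277.6 to 287.6 CPM in Ctrl, and Gsn. Pi16 went the other way, at 6.00 to 8.12 CPM in KO2 and 1.20 to 2.03 CPM in Ctrl. Of 17 tested integrin subunit genes 8 rose and 4 fell (47.1% and 23.5%), 7 and 3 without KO2 replicate 2. Itga10 rose 7.70-fold, and Itga7, Itga2 and Itgb3 fell 6.37-fold, 5.34-fold and 5.08-fold.

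Signalling lists are set against the 29.5% lower and 24.6% higher among all tested genes. Of 34 tested genes of TGF-beta, BMP and activin signalling 18 fell and 8 rose (52.9% and 23.5%), 19 and 8 without KO2 replicate 2. Tgfb2, a ligand gene, stood at 19.11, 18.9 and 18.7 CPM in Ctrl and at 0.917, 0.848 and 0.782 CPM in KO2. Inhba, an activin subunit gene, fell 12.9-fold, and the activin-binding inhibitors Fst and Fstl3 fell 58.5-fold and 9.29-fold. Of 28 tested Wnt pathway genes 13 fell and 6 rose (46.4% and 21.4%), 12 and 5 without KO2 replicate 2. The ligand gene Wnt10a fell 28.6-fold, Tcf7, a nuclear effector, fell 2.49-fold, and Lgr6, an R-spondin receptor gene, rose 7.91-fold from 10.6 ± 0.892 to 83.5 ± 7.42 CPM (SD, n = 3). Of 36 growth factor and receptor tyrosine kinase genes 18 fell and 11 rose (50% and 30.6%), 16 and 10 without KO2 replicate 2, so that both shares were above those of all genes. The EGF receptor ligand genes Areg and Hbegf fell 16.5-fold and 3.20-fold.

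AP-1 and immediate early genes, which respond to kinase signalling, were lower for 21 of 34 and higher for 5 (61.8% and 14.7%). All tested genes gave 29.5% and 24.6%. The median of the 34 was -0.64, and the counts were the same without KO2 replicate 2. Junb, an AP-1 subunit gene, stood at 151, 171 and 164 CPM in Ctrl and at 30.9, 27.8 and 31.8 CPM in KO2. Fos fell 9.82-fold and Ier3 3.93-fold. Atf3, a stress-induced factor, fell 6.28-fold in KO2 and averaged 42.7 ± 18.6 CPM in KO1 against 16.8 ± 6.82 CPM in Ctrl (SD, n = 3). Of 28 tested YAP and TEAD targets 14 fell and 7 rose (50% and 25%). Without Ctrl replicate 3 the count of higher genes was 4. Ccn1 and Ccn2, genes of matricellular proteins, fell 3.26-fold and 4.67-fold.

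Genes of the cell cycle were higher. Of 50 tested genes of G2 and mitosis 45 rose and none fell (edgeR), where 24.6% of all tested genes rose and 29.5% fell. The median log2 fold change of the 50 was 0.56, and 46 had no overlap between the groups against 30.2% of all genes. The count of higher genes was 42 without KO2 replicate 2 and 41 with total count scaling. Ccnf, the cyclin F gene, stood at 49.4, 46.7 and 48.5 CPM in Ctrl and at 105.8, 120.4 and 115 CPM in KO2. Kif20a, a kinesin gene of cytokinesis, rose 2.10-fold, and the phosphatase genes Cdc25b and Cdc25c, which switch on mitotic cyclin-dependent kinase, 2.08-fold and 1.92-fold. Tested directly, 35 of the 50 were higher in KO2 than in KO1 and 1 was lower. All tested genes gave 25.5% higher and 29.5% lower in that test.

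Of 49 tested genes of G1/S and S phase 32 rose and 5 fell (65.3% and 10.2%), against 24.6% and 29.5% of all tested genes. The count of higher genes was 23 with total count scaling or without Ctrl replicate 3, and 27 without KO2 replicate 2. Pcna, the sliding clamp of DNA polymerase, rose from 354.5, 272.5 and 310 CPM to 506, 511 and 526 CPM. Fen1, Cdc6 and Gins2, which act in DNA replication, rose 1.68-fold, 1.67-fold and 1.64-fold. Of 31 tested CDK inhibitor and p53 target genes 15 fell and 7 rose (48.4% and 22.6%). Plk2 fell 11.3-fold from 229 ± 39.5 to 20.3 ± 0.765 CPM (SD, n = 3), Gadd45b 4.58-fold and Gadd45a 2.93-fold.

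Nuclear and housekeeping groups moved by small steps. For comparison, 24.6% of all tested genes were called higher and 29.5% lower. Of 48 nuclear speckle and splicing factor genes 23 rose and 5 fell, with a median of 0.18, and 16 rose with total count scaling and 19 without KO2 replicate 2. Srsf6 rose from 303, 264 and 291 CPM to 515, 511 and 469 CPM, Srsf2 rose 1.57-fold, and the kinase gene Dyrk1a fell 1.68-fold. Of 20 paraspeckle genes 8 rose and 2 fell, 5 and 4 with total count scaling. Rbmx rose 1.75-fold, while Pspc1, the gene of a core paraspeckle protein, kept 62.6% of its Ctrl level. Of 73 cytosolic ribosomal protein genes 36 rose and 1 fell, with a median of 0.21, and 28 rose with total count scaling. Rpl24 rose from 307, 309 and 295 CPM to 819, 797 and 813 CPM, and Rpl35a 2.61-fold. Of 55 nuclear genes of the respiratory chain 28 rose and 2 fell, and without Ctrl replicate 3 the higher count was 17, without KO2 replicate 1 or 3 it was 18, and without KO2 replicate 2 it was 24.

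All 8 tested Hox genes, homeobox factors of the Hoxa cluster, rose, with a median log2 fold change of 0.83. Hoxa5 stood at 81.1, 59.2 and 80.5 CPM in Ctrl and at 183.5, 195 and 179 CPM in KO2, and the other 7 rose, from 0.46 for Hoxa2 to 1.87 for Hoxa4 on the log2 scale. The count was 8 under each alternative that was run. Of 33 tested genes of DNA methylation and chromatin silencing 17 rose and 6 fell (51.5% and 18.2%). The shares of all tested genes were 24.6% and 29.5%. With total count scaling 10 rose, and without KO2 replicate 2 the count was 15. Suv39h1, a histone methyltransferase gene, rose 1.84-fold, and the ATPase genes Morc3 and Morc4 fell 1.87-fold and 1.68-fold.

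Metabolic and stress genes were mixed. Of 36 tested glycolysis and hypoxia genes 9 fell and 4 rose (25% and 11.1%), against 29.5% and 24.6% of all tested genes. Without Ctrl replicate 3 the count of lower genes was 5. Hif1a, the hypoxia-inducible factor gene, stood at 864.5, 964 and 881 CPM in Ctrl and at 363, 357.5 and 366 CPM in KO2, and Pfkfb3, a regulator of glycolysis, fell 3.17-fold. Insig1, the sterol sensor partner, rose from 39.3, 17.9 and 32.6 CPM to 123.5, 115 and 120.4 CPM, and Fasn, the fatty acid synthase gene, 2.00-fold. Of 37 sterol and fatty acid synthesis genes 11 rose and 8 fell (29.7% and 21.6%), near the 24.6% and 29.5% of all tested genes. Of 36 genes of ATF4 and the unfolded protein response 15 fell and 3 rose (41.7% and 8.33%). Without KO2 replicate 2 these counts were 12 and 3. Ppp1r15a fell 3.43-fold.

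Of 40 antioxidant genes 19 rose and 11 fell (47.5% and 27.5%), against 24.6% and 29.5% of all tested genes. Sod1, the cytosolic superoxide dismutase gene, rose 3.64-fold from 130.5 ± 8.73 to 475 ± 19.6 CPM, while Sod2, the mitochondrial one and an NF-kB target, fell 4.50-fold from 149.7 ± 7.00 to 33.3 ± 2.16 CPM (SD, n = 3). Mt2, a metallothionein gene, fell 9.43-fold, and Gstp1, a glutathione transferase gene, rose 2.82-fold.

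By absolute difference the largest increases were in abundant genes. Eef1a1, the translation elongation factor gene, rose from 8014, 8245 and 7822 CPM to 10360, 9678 and 10480 CPM. Spp1, the osteopontin gene, rose 1.71-fold from 2902 ± 244 to 4968 ± 204 CPM (SD, n = 3). Lgals1, the galectin-1 gene, rose 1.54-fold to 4851 CPM and stood at 1307 CPM in KO1, a direct difference of 1.89 on the log2 scale (edgeR adjusted p = 1.16e-08). Ctsl, the cathepsin L gene, rose 2.22-fold and Hspa8, a chaperone gene, 1.84-fold. Among the largest decreases, Fn1, the fibronectin gene, kept 52.2% of its Ctrl level in KO2 and was higher in KO1, at 2946 CPM against 2059 CPM in Ctrl. Fth1, the ferritin heavy chain gene, kept 78.6%.

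Cdc27, Gosr2 and Kansl1, all among the 8 genes with the largest absolute decrease, lay in 1 row on chromosome 11. Cdc27, a subunit gene of the anaphase-promoting complex, stood at 2074, 2071 and 2026 CPM in Ctrl and at 210.5, 209 and 209.7 CPM in KO2. KO1 averaged 218 CPM, and the lines did not pass the test of a difference (log2 difference -0.05, edgeR adjusted p = 0.562). The Golgi transport gene Gosr2 and the chromatin gene Kansl1 fell 9.37-fold and 7.22-fold. These genes belong to a row of 19 neighbouring tested genes at chr11:103219764-105117537 (GRCm38), from Map3k14 to Efcab3, all of them lower by at least 2-fold in KO2. Their median log2 fold change was -3.23, and in KO1 all 19 were lower too, with a median of -3.03. Nsf, a vesicle fusion ATPase gene in the row, kept 8.89% of its Ctrl level in KO2, and Mapt, the tau gene, 0.652%. Of the 19, 6 differed between KO2 and KO1 in the direct test.

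**Figure D5:**
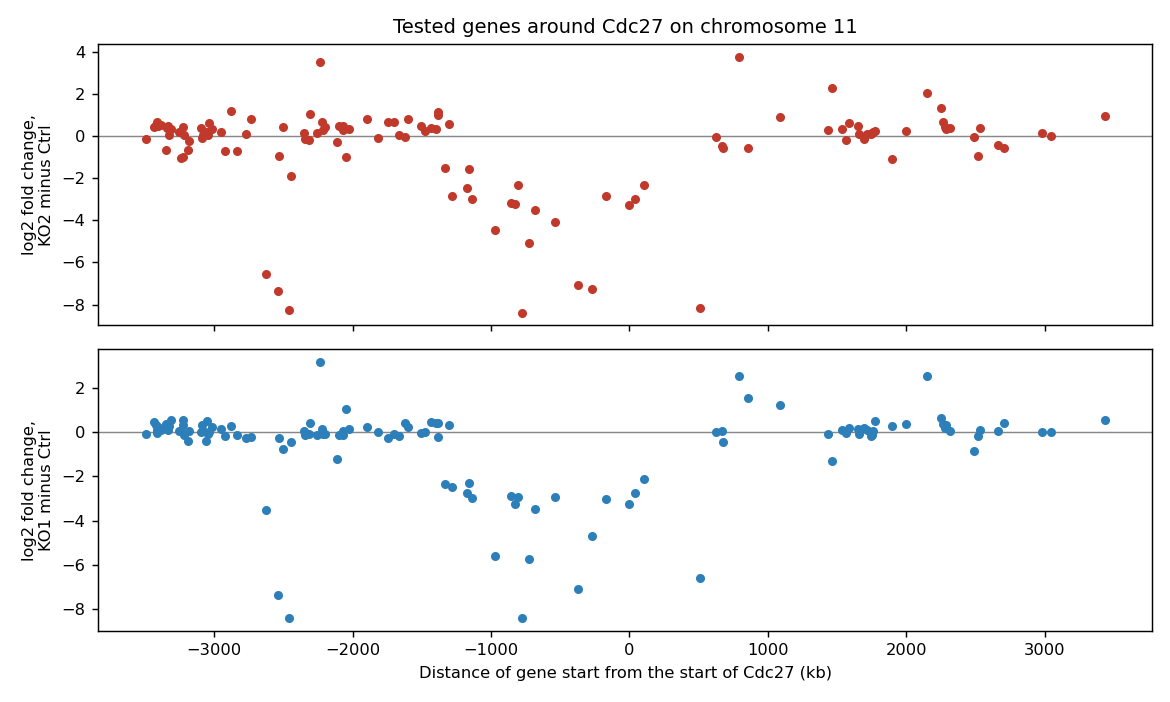
Fitted log2 fold changes of tested genes on chromosome 11 against the distance of their start from that of Cdc27 in kb, in KO2 (top) and KO1 (bottom) against the same 3 Ctrl libraries; each point is 1 gene. The row of 19 lower genes lies around and to the left of Cdc27 in both panels, with medians of -3.23 in KO2 and -3.03 in KO1, and most genes farther out lie near 0.

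Such rows were looked for across the genome, by a rule written after the data were seen: at least 5 neighbouring tested genes called in the same direction, each by at least 2-fold. There were 19 rows with 138 genes in all, 17 lower and 2 higher. Of all tested genes 11.4% were called lower and 3.95% higher by at least 2-fold. Beside chromosome 11, a row of 14 genes at chr4:145464210-147702631, from Smarca5-ps to Zfp534, which holds many copies of zinc finger genes, had medians of -4.65 in KO2 and 0.22 in KO1. In it Zfp985 fell from 33.4, 36.2 and 31.3 CPM to 0.262, 0.136 and 0.272 CPM. On the X chromosome 8 genes at chrX:147383478-149826694, from Il13ra2 to Gm15097, had 0 counts in every KO2 library, and their KO1 median was -0.10. Luzp4 was the highest of them, at 8.05, 5.46 and 8.36 CPM in Ctrl. A row of 11 genes at chr14:42089750-45318572 had medians of -3.24 in KO2 and 0.17 in KO1. It ends with Ero1a, an oxidase gene of protein folding, which stood at 532.9, 497 and 794 CPM in Ctrl and at 179, 319.8 and 251.5 CPM in KO2. Interferon-related rows were the Gbp genes on chromosome 3 (5 genes, -4.05) and chromosome 5 (5 genes, -3.19), the stretch from Fbxo36 to Sp100 on chromosome 1, which holds Sp110, Sp140 and Sp100 (6 genes, -5.02), Trim genes on chromosome 7 (6 genes, -2.77) and the stretch from Lipn to Ifit1 with Fas on chromosome 19 (9 genes, -3.16). KO1 medians in these 5 rows lay between 0.32 and 1.06.

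In 4 other rows the KO1 median was below that of all genes by more than the 2-fold limit as well. The Serpina row on chromosome 12 had fitted medians of -10.4 in KO2 and -7.59 in KO1, which depend on the prior count where counts were 0, and the Serpinb row on chromosome 13 -4.43 and -1.99. The row from Sema7a to Islr2 on chromosome 9, with Stra6, had medians of -7.57 and -7.37, and the row from Them6 to Ly6c2 on chromosome 15 -1.84 and -1.94. Of the 2 rows that rose, the Cd300 row (5 genes) had medians of 7.31 in KO2 and 2.34 in KO1. The stretch from Hoxaas2 to Hoxa5 (5 genes) had medians of 1.34 and 0.31. It holds Hoxa3, Hoxa4, Hoxa5 and 2 antisense RNA genes. Sense and antisense reads may not have been told apart there. Members of the Serpina, Gbp, Ly6, zinc finger and CD300 rows are close copies, so single values in them are uncertain.

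Whole chromosomes moved by less. Chromosome 4 had the lowest median log2 fold change, -0.33 over 814 tested genes, of which 53.6% were called lower. Each KO2 library was low there, with medians of -0.31, -0.33 and -0.31 against the Ctrl mean, and the Ctrl libraries lay between -0.014 and 0.018. Chromosomes 14 and 13 followed at -0.23 and -0.22. The highest medians were those of chromosomes 18, 11 and 2, at 0.22, 0.16 and 0.14. KO1 had medians of 0.04 on chromosome 4 and -0.05 on chromosome 18, and -0.20 on chromosome 13, close to that of KO2.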

How the data were processed

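Gene expression was measured by RNA sequencing (BGISEQ-500) in 3 Ctrl, 3 KO1 and 3 KO2 libraries of 4T1-TGL cells. Per the file headers, the deposited tables hold RSEM expected counts and FPKM per gene. HISAT, RSEM and the builds mm10 and GRCm38 are named in the submitters' processing notes, and versions are not given in the sources used here. Genes below an FPKM of 0.01 are not listed in the authors' tables and were taken as 0. Samples were grouped by their titles. The series' design text repeats 1 KO2 replicate name and gives 1 KO1 library another number, so the titles were used.

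Expected counts were rounded and fitted in edgeR 4.0.16 (R 4.3.3, limma 3.58.1) over all 9 libraries with 1 coefficient per group, TMM scaling, filterByExpr and robust quasi-likelihood dispersion. This left 13682 genes and 6 residual degrees of freedom, and the common coefficient of variation was 11.1%. The Benjamini-Hochberg adjustment ran over the whole set of tested genes, and an adjusted p under 0.05 made a call. Counts were simulated for KO2 against Ctrl over 13519 genes. The fit recovered 11 of 50 genes changed 1.25-fold, 36 of 50 at 1.5-fold, 47 of 50 at 2-fold and all 50 at 4-fold. There were 8 false calls. The simulation gave all genes the same spread and changed few of them, in balanced directions and none with low counts. In the data 54.1% of genes were called, so the 8 false calls do not measure the error there. Alternatives were other scalings and filters, DESeq2 1.42.0, limma-voom, limma on log2(FPKM + 1) and log2(FPKM + 0.1), fewer libraries and a replicate block. Same-numbered Ctrl and KO2 libraries did not deviate together (correlations 0.027, -0.124 and -0.068), so the numbers were not taken as pairs.

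Genes were named by rule: Malat1 and Neat1, 12 per direction with the largest change at a mean of at least 5 CPM, up to 4 per list, 8 per direction by CPM difference, and the genes that appeared or vanished. List members outside the rule were named where a count was 5 or fewer or to complete a pathway, after their values were seen. The comparison and the 44 gene lists were chosen with earlier results of these data known. Of 19072 gene identifiers, 17719 were Entrez numbers and 17682 matched RefSeq (GRCm38.p6), which gave coordinates, and 1351 were unnamed gene models. A gene at 0 counts was set to 3 counts for the group, plus what the listing minimum could hide, before a fold was taken. Intervals for 1 to 3 counts are exact binomial intervals at 95%.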

Additional observations from a re-analysis of the deposited data

Results flagged for a closer look

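In 8 named genes KO2 and KO1 each differed from Ctrl by at least 2-fold in opposite directions, and the direct test between the lines was passed in edgeR. The KO2 minus KO1 difference on the log2 scale was -14.19 for Gm1966, -13.36 for Sfrp1 and -14.67 for Map2. These 3 genes had 0 counts in KO2, so their fitted differences depend on the prior count of the fit. It was -7.57 for Trim30a, -2.62 for Tlr2, -9.06 for Lama4 and -3.99 for Atf3, all lower in KO2 and higher in KO1 than in Ctrl. Mmp3 went the other way, at 2.66, being higher in KO2 and lower in KO1 than in Ctrl.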

How the results depend on the processing

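The count of called genes lay between 5445 at an adjusted p under 0.01 and 7853 in a fit of only the Ctrl and KO2 libraries. Leaving out 1 library gave 2826 to 3040 higher and 3562 to 3827 lower genes, of which 505 to 574 and 1516 to 1627 changed by at least 2-fold. With log2(FPKM + 1) the last 2 counts were 228 and 716. With the replicate number as a block, 3014 genes were higher and 3712 lower, 532 and 1547 by at least 2-fold, and the Malat1 change was -1.90. Each of 2 named genes, Piwil4 and B230307C23Rik, lost its call with the block. Without 1 library the Malat1 log2 fold change lay between -2.09 and -1.72 and the share left between 23.5% and 30.2%. Genes lost from KO2 numbered 209 at a presence limit of 0.5 CPM and 86 at 2 CPM, and 143 to 175 without 1 library. Genes gained numbered 14 at 0.5 CPM and 8 to 12 without 1 library. Of 185 named genes, 7 lost their call in at least 1 alternative (Jup, Prdm9, Piwil4, Cox7b, H2bc4, Cd68 and B230307C23Rik), 4 of them without KO2 replicate 2, and none changed direction. Of the list counts, 1492 stayed within 1.5 times and 92 did not. The causes were not tested. Depth limits the genes with few counts, whose changes are given as bounds or with counting intervals.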
